A study of Homo sapiens with 36 samples.

Results

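The distal long arm of chromosome 3 (distal 3q) was taken as all TET1 peaks with a summit between 160 and 198.03 Mb of chromosome 3 on hg19. It held 574 of 62066 peaks in 6 peak lists: 240 in siNC, 300 in siCHD5, 23 in siMBD2, 11 in siMBD3 and 0 in each of siCHD3 and siCHD4. The window was selected on the positions of siMBD2 and siMBD3 peaks in these same lists, so all counts within it are descriptions and were not tested. The peaks came from chromatin immunoprecipitation with an antibody to TET1 followed by sequencing in HEK293T, a line derived from human embryonic kidney. Cells had received siRNAs called siNC (taken as the control because the other names are genes), siCHD3, siCHD4, siCHD5, siMBD2 or siMBD3. Each siRNA had 3 pull-down and 3 input libraries and 1 peak list, taken as called on the pooled replicates. All 6 groups were transfected cells, the control included. How far each siRNA lowered its target was not analysed here. No spread between replicates can be computed from 1 list per group, and peaks are not replicates, so differences between lists or between places were not tested.

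TET1 oxidises 5-methylcytosine, the first step of active DNA demethylation, and is known for binding at CpG-rich promoters and enhancers. The siRNAs name parts of the NuRD complex, which couples nucleosome remodelling to histone deacetylation. CHD3, CHD4 and CHD5 are its alternative ATPases, and MBD2 and MBD3 are its alternative methyl-CpG-binding domain subunits. Distal 3q is known as a segment that is often gained in squamous carcinomas. It holds, in order from the centromere side, MECOM (a zinc finger transcription factor of blood stem cells), SOX2 (a transcription factor of pluripotent and neural progenitor cells), BCL6 (a transcriptional repressor of germinal centre B cells), LPP (a LIM domain protein of focal adhesions) and TP63 (a p53 family factor of stratified epithelia). In RefSeq BCL6 and LPP are next to each other among protein-coding genes, and TPRG1 stands between LPP and TP63. The RefSeq table used here is on another assembly, GRCh38.p14, and gives gene names and order only. Distances from peaks to these genes and base composition were therefore not analysed here, and peaks are named by position.

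The control TET1 landscape of distal 3q was sparser than that of the rest of the chromosome. siNC had 240 peaks over 38.03 Mb, or 6.31 per Mb, against 1291 peaks and 8.07 per Mb on the remaining 160 Mb. This was 15.7% of the siNC peaks of chromosome 3 (exact Clopper-Pearson 95% interval 13.9 to 17.6), while the segment spans 19.2% of the chromosome. siCHD5 had 300 of 1790 chromosome 3 peaks there (16.8%, 15.1 to 18.6), or 7.89 per Mb against 9.31 elsewhere. Intervals cover counting error only.

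The siMBD2 and siMBD3 peaks, whose positions the window was drawn around, lay mostly inside it. siMBD2 had 23 of its 26 chromosome 3 peaks in distal 3q (88.5%, 69.8 to 97.6), which is 0.605 per Mb against 0.0187 on the rest of the chromosome. siMBD3 had all 11 of its chromosome 3 peaks there (100%, 71.5 to 100), or 0.289 per Mb. Both shares follow from the choice of the window, so their confidence intervals do not measure uncertainty. Summits within the same peak were also counted separately and are not independent. The segment made up 6.42% of the siMBD2 list and 4.25% of the siMBD3 list, against 0.844% of siNC and 0.916% of siCHD5. siCHD3 and siCHD4 had 0 peaks on the whole of chromosome 3, in lists of 140 and 110 peaks.

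The bound at 160 Mb passed through no group of MBD peaks. The siMBD2 peak just outside had its summit 519 kb before the bound (4.68-fold) and the first one inside lay 9.94 Mb beyond it (7.08-fold). In siMBD3 the first peak inside lay 8.80 Mb beyond the bound (4.98-fold). siNC and siCHD5 had peaks on either side, 119 kb outside (5.11-fold and 3.81-fold) and 132 kb inside (10.0-fold and 8.86-fold). The 3 siMBD2 peaks on the rest of the chromosome lay at 73159934 to 73160153 (4.10-fold), 149088973 to 149089187 (3.96-fold) and 159480510 to 159480813 (4.68-fold). The first of these overlapped both siNC and siCHD5, and it stood on a control background of 29.2 reads, against 2.03 and 1.99 reads for the other pair.

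**Figure D1:**
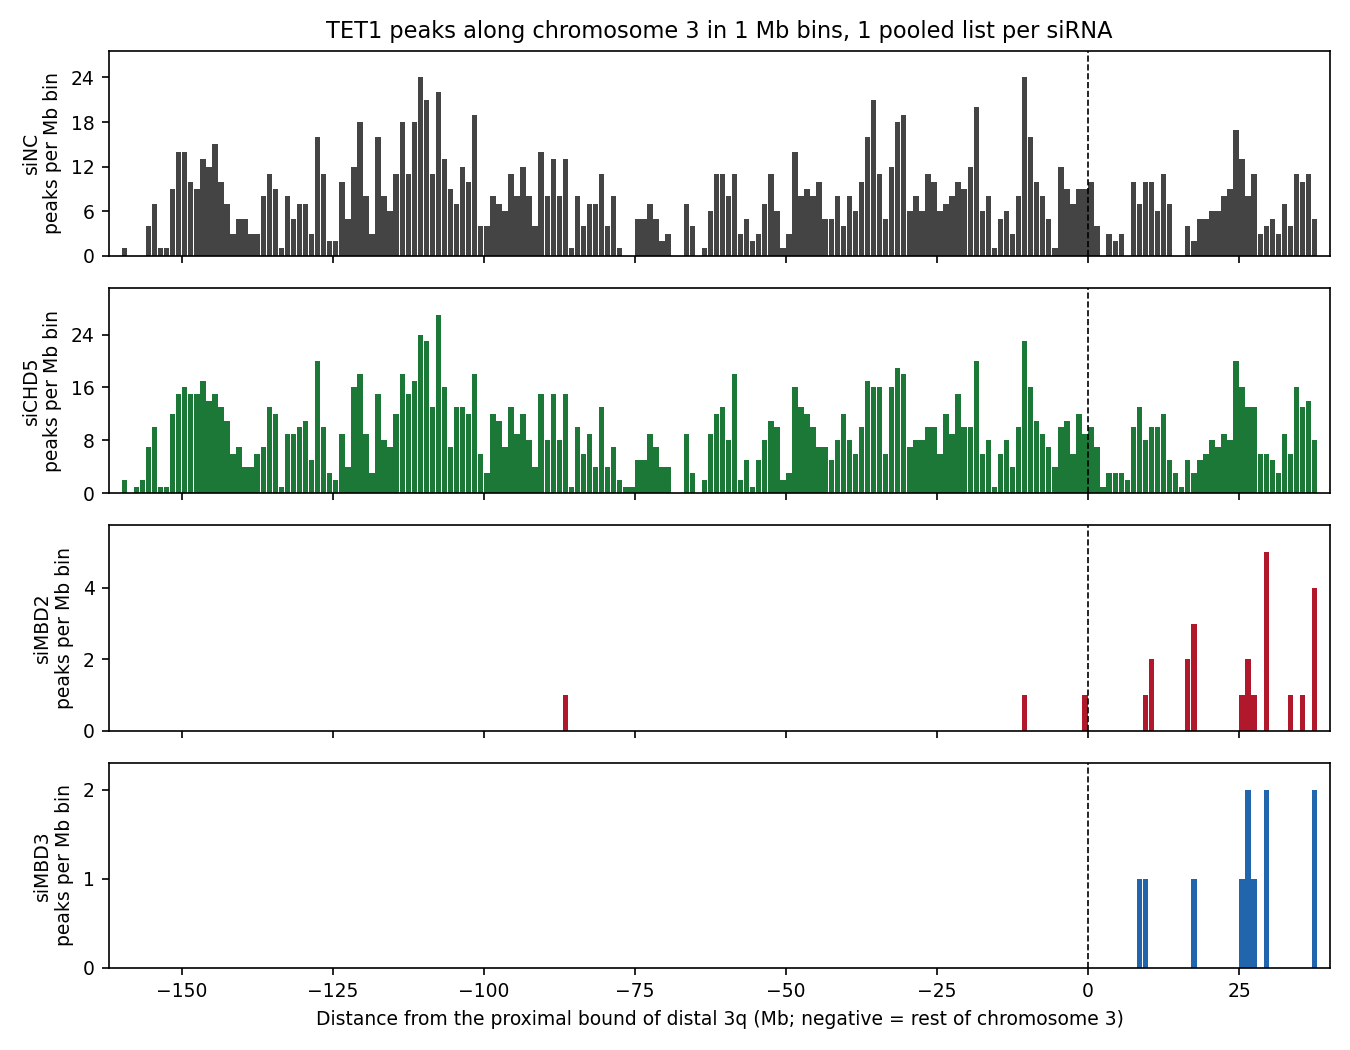
Number of TET1 peaks per 1 Mb bin along chromosome 3, in siNC, siCHD5, siMBD2 and siMBD3; the x axis is the distance from the proximal bound of distal 3q in Mb, the dashed line marks that bound, and each bar is 1 bin of 1 pooled list (the y axes differ). siNC and siCHD5 peaks spread over the whole chromosome, while siMBD2 has 23 of 26 and siMBD3 11 of 11 peaks to the right of the line.

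In 1 Mb bins, siNC had a median of 6 peaks in the 38 bins of distal 3q (quartiles 3.25 and 10, highest 17) and 8 in the 160 bins of the rest (quartiles 4.75 and 11, highest 24). The fullest siNC bin started at 184 Mb with 17 peaks, followed by 185 Mb with 13 and by 172, 187, 194 and 196 Mb with 11 each. The bins from 162, 166, 174 and 175 Mb had 0 siNC peaks, and siCHD5 had 1, 2, 3 and 1 peaks in them. siCHD5 had a median of 7.5 peaks per bin (rest of chromosome 3: 9), with the fullest bins again at 184 Mb (20 peaks), 185 and 194 Mb (16 each) and 196 Mb (14), followed by 168, 186, 187 and 195 Mb (13 each), and no bin of the segment was without a siCHD5 peak. It had more peaks than siNC in 27 of 38 bins, the same number in 8 and fewer in 3. The siCHD5 list was the longer one as a whole, with 32749 peaks against 28450 in siNC. On the rest of chromosome 3 it also had more, 1490 against 1291, so having more peaks was not particular to the segment. The segment made up 0.916% of the siCHD5 list and 0.844% of the siNC list, and the rest of chromosome 3 4.55% and 4.54%. The split of bins was not counted on the rest of the chromosome.

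siMBD2 peaks fell in 11 of these bins and siMBD3 peaks in 8, and 7 bins had both. The bin from 189 Mb was the fullest in siMBD2, with 5 peaks, and held 2 siMBD3 peaks, against 4 in siNC and 6 in siCHD5. The bin from 197 Mb held 4 siMBD2 and 2 siMBD3 peaks, and the bin from 177 Mb held 3 and 1. Bins from 186 Mb (2 and 2), 170 Mb (2 and 0) and 176 Mb (2 and 0) followed. The fullest siNC bin, from 184 Mb, had 0 peaks of either MBD list. No MBD peak lay between 160 Mb and the first siMBD3 peak at 168.8 Mb, a stretch with siNC peaks in most bins.

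The height of the peaks was compared next, as fold enrichment, the authors' ratio of pull-down signal over local control, used within its own list. siNC peaks of distal 3q had a median of 6.58-fold (quartiles 5.14 and 8.51, range 2.90 to 21.2), and those of the rest of chromosome 3 had 6.58-fold (4.98 and 8.69). siCHD5 medians were 6.57 and 6.75. siMBD2 peaks of distal 3q had a median of 4.96-fold (range 4.06 to 8.14), and their best rank by fold was 28 of 358. The whole siMBD2 list, which also holds low-fold peaks, had a median of 4.60 (quartiles 2.33 and 5.67). siMBD3 peaks of distal 3q had a median of 4.36-fold (range 3.82 to 7.94), and their best rank was 15 of 259. The whole siMBD3 list had a median of 4.13 (quartiles 1.53 and 5.02). By −log10 q both were weak: the medians were 3.37 in siMBD2 and 2.59 in siMBD3, against list medians of 5.21 and 5.56.

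Pull-down pileup and control background at each summit, recovered from fold and −log10 p, give the reads behind these peaks. The 23 siMBD2 summits had 11 to 22 pull-down reads (median 13) and the 11 siMBD3 summits had 12 to 26 (median 15). siNC summits in distal 3q had a median of 27 reads (quartiles 21 and 33, range 10 to 88) and siCHD5 summits 29. Reads depend on the depth of each list, so the values stand side by side without a comparison.

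The control background was low at these summits. It stood at the lowest value of the list, 1.83 reads, at 19 of 23 siMBD2 summits (82.6%), and at the remaining 4 it was 1.95 to 2.99 reads. Over the whole list 30.3% of the recovered summits stood at that value. Dense clusters of siMBD2 and siMBD3 peaks differed: 75.9% on chromosome 8 at 32 to 33 Mb and 31.6% on chromosome 11 at 34 to 36 Mb. In siMBD3 the background was at the lowest value, 2.21 reads, at 4 of 11 summits (36.4%) and reached 5.34 at the highest. The siMBD3 share was 14.7% over the whole list, 39.1% in the chromosome 8 cluster and 17.3% in the chromosome 11 cluster. The control background at siNC and siCHD5 summits was also lower in the segment. Its medians were 2.80 reads in siNC and 3.14 in siCHD5, against 3.70 and 3.99 on the rest of chromosome 3, and 32.9% of siNC summits stood at the lowest siNC value of 2.50 reads, against 16.4% elsewhere. The median pull-down pileup moved with it, 27 against 31 reads in siNC and 29 against 36 in siCHD5. The part of this lower background in the peak counts was not tested.

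**Figure D2:**
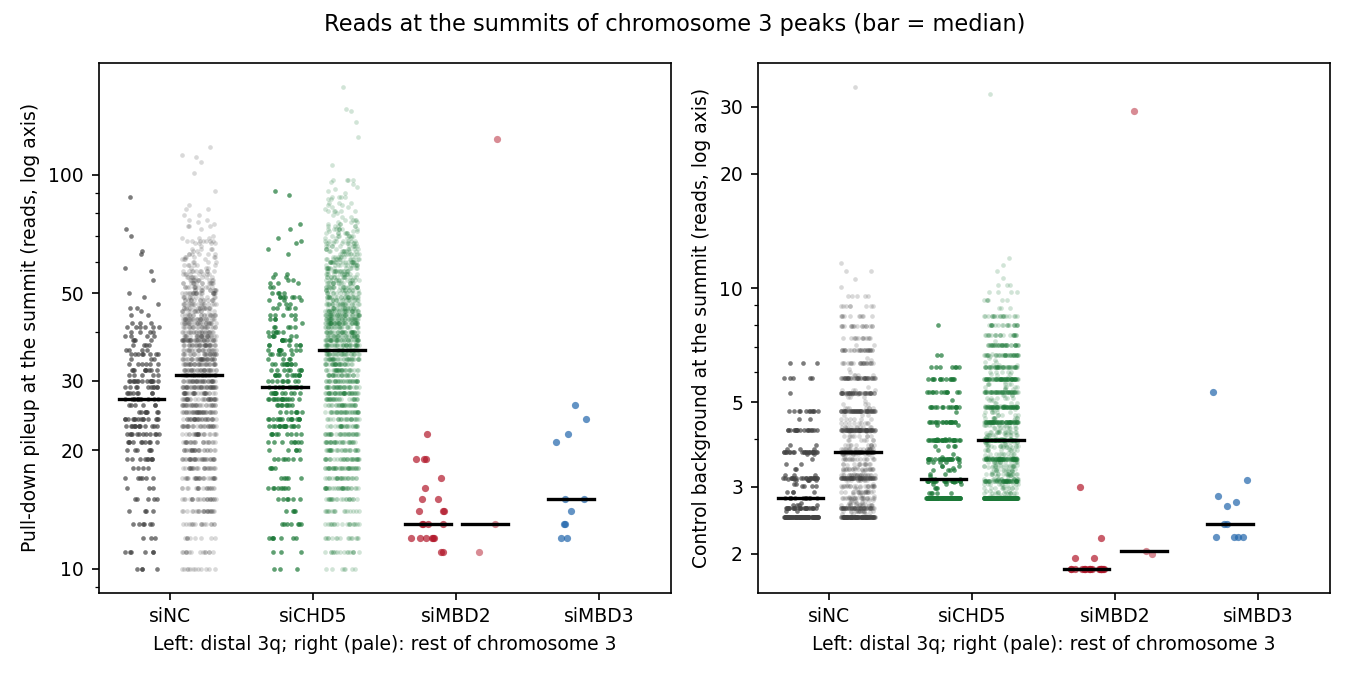
Pull-down pileup (left) and control background (right) at the summits of chromosome 3 peaks in reads on log axes, for distal 3q (left column of each list) and the rest of chromosome 3 (right column, pale); each point is 1 peak and the bar is the median. siMBD2 summits in distal 3q lie at 11 to 22 pull-down reads, mostly on the lowest control background of 1.83 reads, and siMBD3 has no peak on the rest of the chromosome.

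Position relative to the control sites was then measured for each MBD peak. Of the 23 siMBD2 peaks 1 overlapped a siNC peak by at least 1 bp (4.35%, 0.11 to 21.9), against 20.7% over the whole siMBD2 list. Of the 11 siMBD3 peaks 0 did (0 to 28.5%), against 22.0% over the list. These whole-list shares come from lists that also hold low-fold peaks. Over the whole lists, peaks overlapping siNC had a median of 1.85-fold in siMBD2 and 1.56-fold in siMBD3. Peaks without such an overlap had 4.96-fold and 4.37-fold. The lowest fold in distal 3q was 4.06 in siMBD2 and 3.82 in siMBD3, so the shares do not compare like peaks. siCHD5 was overlapped by 4 siMBD2 peaks (17.4%, 4.95 to 38.8, whole list 26.3%) and by 3 siMBD3 peaks (27.3%, 6.02 to 61.0, whole list 30.1%). In each list 2 of these are summits of the 1 interval at 186501110 and meet the same siCHD5 peak. They are not independent, and the intervals do not allow for this. Seen from the control, 1 of 240 siNC peaks in distal 3q was overlapped by siMBD2 (0.417%, whole siNC list 0.250%) and 0 by siMBD3 (whole list 0.176%). Of the 300 siCHD5 peaks 3 were overlapped by siMBD2 (whole siCHD5 list 0.296%) and 2 by siMBD3 (0.223%).

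Distances to the control sites varied widely. The median distance between a siMBD2 summit and the nearest siNC summit was 89.9 kb (quartiles 13.5 and 130, range 0.243 to 308), and 10 of 23 lay over 100 kb away. For siMBD3 it was 32.9 kb (range 2.57 to 207), with 2 of 11 over 100 kb. Summits that shared an interval were counted separately. Neighbouring siNC summits within distal 3q lay a median of 76.1 kb apart, which is a gap between summits and not a distance to the nearest one. To the nearest siCHD5 summit the medians were 34.1 kb for siMBD2 and 32.9 kb for siMBD3, with 5 of 23 and 4 of 11 within 1 kb. Distances were not measured over the whole siMBD2 and siMBD3 lists, so whether those of the segment are unusual for these lists is not known.

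**Figure D3:**
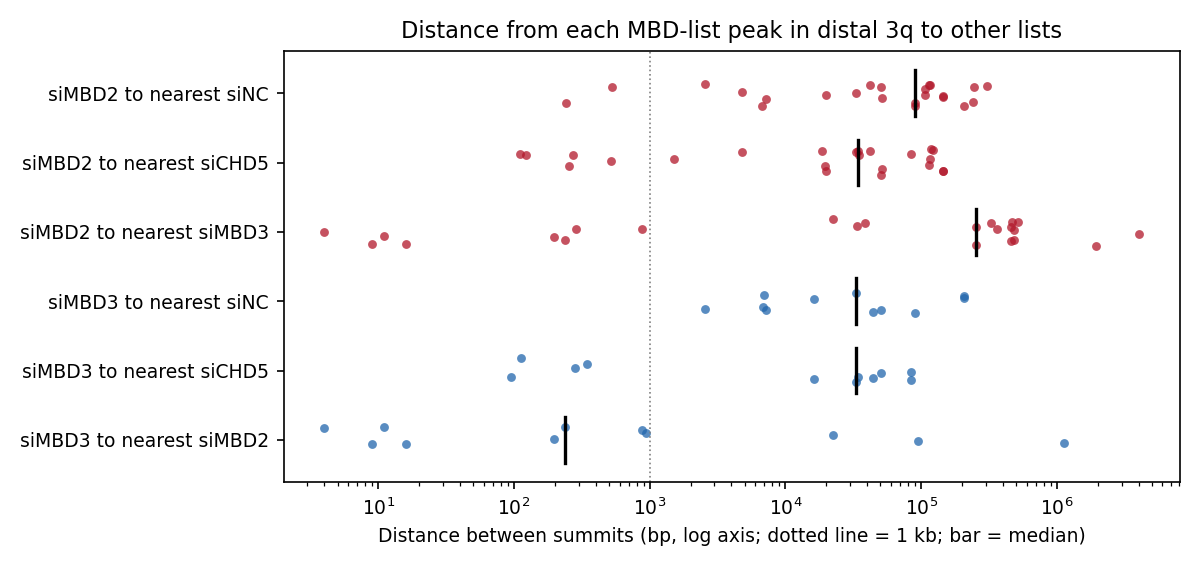
Distance in bp (log axis) from each siMBD2 (red) and siMBD3 (blue) summit in distal 3q to the nearest summit of another list; each point is 1 peak, the bar is the median and the dotted line is 1 kb. Within 1 kb of a siNC summit lie 2 of 23 siMBD2 and 0 of 11 siMBD3 summits, while 8 of 23 and 8 of 11 lie within 1 kb of the other MBD list. Distances were not measured over the whole lists.

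Overlap between the MBD lists was counted next. In distal 3q 5 of 23 siMBD2 peaks overlapped siMBD3 (21.7%, 7.46 to 43.7) and 5 of 11 siMBD3 peaks overlapped siMBD2 (45.5%, 16.7 to 76.6). Counted as distinct intervals instead of summits, these were 4 of 21 and 4 of 10. Over the whole lists the shares by summit were 51.1% and 73.4%, and the siMBD3 interval includes the latter. Whole-list peaks with such an overlap had a median −log10 q of 9.16 in siMBD2 and 7.82 in siMBD3. Those without had 3.37 and 3.11, and the medians of all peaks in distal 3q were 3.37 and 2.59. The shares therefore do not compare like peaks. Counting summits within 1 kb instead of overlaps, the numbers in distal 3q were 8 of 23 and 8 of 11. The same count was not made over the whole lists, so these numbers have no share to be set against. When intervals within 1 kb were joined, both lists together formed 21 sites: 6 with peaks of both, 12 with siMBD2 alone and 3 with siMBD3 alone. Of these, 18 overlapped neither siNC nor siCHD5 (85.7%, 63.7 to 97.0), against 178 of 270 sites joined the same way over the whole lists (65.9%). The whole-list share again includes low-fold peaks of a kind that the segment lacked.

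The sites common to both MBD lists included their strongest peaks in the segment. The highest siMBD3 peak, at 169939930 to 169940142, had 7.94-fold enrichment over 26 reads, and siMBD2 had a 7.08-fold peak of 19 reads at 169939920 to 169940138. Their summits were 4 bp apart, and the nearest siNC summit was 32.9 kb away. The highest siMBD2 peak, at 187463295 to 187463521, had 8.14-fold enrichment over 22 reads. siMBD3 had a 5.34-fold peak with its summit 9 bp away, and siCHD5 a weak one of 3.08-fold (−log10 q 2.16) at 187463105 to 187463505. siNC had no peak there, but 2.56 kb further on it had a 10.3-fold peak at 187465844 to 187466183, where siCHD5 reached 17.9-fold, the second highest siCHD5 value of the segment.

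A double-summit site stood at 186501110 in both lists, ending at 186501729 in siMBD2 and 186501781 in siMBD3. The siMBD2 summits had 7.08-fold and 5.66-fold enrichment, and the siMBD3 summits, 11 and 16 bp from them, had 6.27-fold and 3.82-fold. A siCHD5 peak of 3.52-fold (−log10 q 3.36) lay inside the interval at 186501311 to 186501560, and the nearest siNC summit was 6.77 kb away. At 189072102 to 189072404 siMBD2 had a 5.66-fold peak and siMBD3 a 4.18-fold one, with summits 198 bp apart, and a further siMBD3 peak of 4.36-fold followed at 189073067 to 189073403. This site was 206 kb from the nearest siNC summit and 84.0 kb from the nearest siCHD5 summit.

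At the other common sites the lists had neighbouring rather than overlapping peaks. At 177166116 to 177167077 a siMBD3 peak of 4.01-fold lay between siMBD2 peaks of 6.37-fold and 4.26-fold, 89.9 kb from siNC. Near the end of the arm, siMBD2 had a 4.25-fold peak at 197581487 to 197581698 and siMBD3 a 4.36-fold one at 197582245 to 197582519, with summits 870 bp apart and over 50 kb from siNC.

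siMBD2 had 12 sites of its own. The strongest, at 193548210 to 193548509, had 7.08-fold enrichment over 19 reads, while the nearest siMBD3 summit was 4034 kb away and the nearest siNC summit 42.3 kb. The lone siMBD2 peak over siNC, at 170408013 to 170408235 (4.60-fold, 12 reads), met the edge of a 7.72-fold siNC peak at 170408201 to 170408468, with summits 243 bp apart, and siCHD5 had a 9.26-fold peak there. It was followed by 170458477 to 170458917 (4.96-fold) and by a double summit at 176913375 to 176913860 (4.06-fold and 4.74-fold), 145 kb from siNC.

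The remaining sites of siMBD2 alone had 4.25-fold to 5.31-fold enrichment. At 177494073 to 177494278 (4.60-fold) siNC was 308 kb away, the largest such distance in the segment, although a siCHD5 summit lay 1.50 kb away. At 185655464 to 185655721 (4.25-fold) siNC was 0.531 kb away without overlap. The bin from 189 Mb held peaks at 189106794 to 189107013 (4.40-fold) and 189111265 to 189111453 (5.31-fold), and a pair at 189559068 to 189559287 and 189560023 to 189560261 (4.96-fold each). Towards the end of the arm followed 195637144 to 195637335 (4.60-fold), a pair at 197121082 to 197121404 (4.60-fold) and 197122048 to 197122250 (5.31-fold), and 197217339 to 197217578 (5.31-fold). siMBD3 alone had peaks at 168803950 to 168804158 (4.98-fold), 185677770 to 185678016 (4.05-fold) and 197676799 to 197677001 (3.94-fold), the last with 24 reads over a control background of 5.34.

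The stretches with no siNC peak held a part of these sites. Between siNC summits at 188.9 and 189.7 Mb, a gap of 800 kb, there were 5 siMBD2, 2 siMBD3 and 4 siCHD5 peaks. The gap of 725 kb between 177.1 and 177.8 Mb held 3 siMBD2, 1 siMBD3 and 2 siCHD5 peaks. The 4 longest siNC gaps of the segment, of 2305, 2225, 1337 and 986 kb, held 0 peaks of either MBD list. The same was true of the gaps of 792, 680, 666 and 648 kb, so most of the 10 longest gaps held none.

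The dense siMBD2 and siMBD3 clusters on chromosome 11 (34 to 36 Mb) and chromosome 8 (32 to 33 Mb) were set beside distal 3q. They were chosen for their density in these lists, so their peak numbers are not comparable with a 38.03 Mb segment, where the fullest bin had 5 siMBD2 peaks. Median siMBD2 widths, taken per summit, were 691 and 498 bp in the clusters and 239 bp in distal 3q. An interval with several summits was thus counted several times. The 95 and 29 summits of the clusters lay in 63 and 25 intervals, and the 23 of distal 3q in 21. This weighting raises the cluster widths more, so the widths do not compare like intervals. Median pileups were 19, 15 and 13 reads, and median folds 5.66, 5.31 and 4.96.

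siCHD5 peaks covered most control sites of the segment. Of 240 siNC peaks 197 overlapped a siCHD5 peak (82.1%, 76.6 to 86.7), against 83.1% on the rest of chromosome 3 (81.0 to 85.1) and 85.4% over the whole list. In the other direction 197 of 300 siCHD5 peaks overlapped siNC (65.7%, 60.0 to 71.0), against 72.3% on the rest of the chromosome (69.9 to 74.5) and 74.5% over the whole list. Paired summits lay a median of 11 bp apart. With siNC peaks split at the quartiles of fold of the whole siNC list, siCHD5 overlapped 26 of 57 of those with the lowest fold (45.6%, 32.4 to 59.3), 65 of 72 and 63 of 68 in the middle ranges and 43 of 43 above the upper quartile. On the rest of chromosome 3 these shares were 57.2% (51.6 to 62.7) below the lower quartile and 98.6% above the upper one. In the middle ranges they were 84.1% and 93.4%, against 90.3% and 92.6% in distal 3q, so the segment was not lower throughout.

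The strongest siNC peaks of distal 3q lay at 195577719 to 195578125 (21.2-fold over 73 reads), 170131917 to 170132266 (20.3-fold, 70 reads), 197894420 to 197894791 (16.2-fold), 196336140 to 196336541 (16.1-fold over 88 reads) and 172390946 to 172391302 (15.4-fold). siCHD5 had peaks of 10.2-fold, 19.5-fold, 16.2-fold, 12.8-fold and 11.2-fold at these sites. The first of them had 68 pull-down reads in siCHD5, over a control background of 5.76 reads where siNC had 2.50. The next 5 siNC peaks, of 12.2-fold to 13.8-fold, lay at 184278989, 192162301, 160638903, 184521070 and 194193040, and each had a siCHD5 peak. The strongest siCHD5 peaks were the 19.5-fold one at 170131941 to 170132272, the 17.9-fold one at 187465815 to 187466133 and the 17.3-fold one at 184278987 to 184279360. The next 7, of 12.8-fold to 16.2-fold, began at 197894432, 172050335, 187037508, 194193038, 185486306, 186470954 and 196336180, and siNC had a peak at each.

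Across the 197 shared siNC peaks, fold in siNC and fold in the siCHD5 peak had a Spearman correlation of 0.46 and a Pearson correlation of 0.52 on the log2 scale. On the rest of chromosome 3 these values were 0.53 and 0.57 over 1073 peaks. The points are sites of the same lists and share libraries and depth, so the values are a description.

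**Figure D4:**
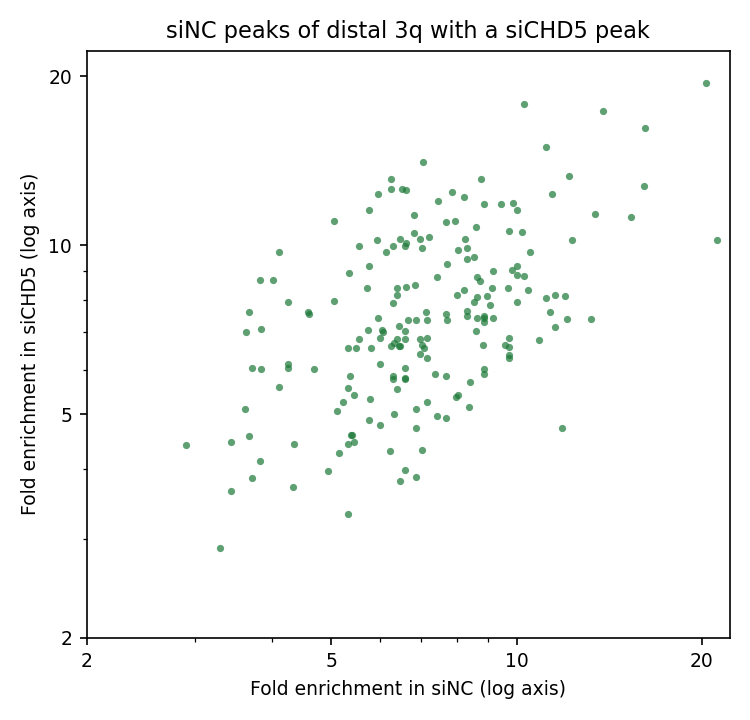
Fold enrichment in siNC (x) and in the overlapping siCHD5 peak (y) on log axes, for the 197 siNC peaks of distal 3q with a siCHD5 peak; each point is 1 siNC peak. Sites high in siNC tend to be high in siCHD5, with a Spearman correlation of 0.46, and the highest siNC peak (21.2-fold) stands at 10.2-fold in siCHD5.

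The 43 siNC peaks without a siCHD5 peak had a median of 4.21-fold, against 6.96-fold for the shared ones. The highest of them lay at 196213219 to 196213538 (8.79-fold), 190768825 to 190769080 (8.24-fold), 172468163 to 172468524 and 183103834 to 183104068 (7.43-fold each) and 192534111 to 192534364 (6.85-fold). The 103 siCHD5 peaks without a siNC peak had a median of 5.03-fold, against 7.41-fold for the shared ones. The highest lay at 193498633 to 193498935 (10.5-fold, 7.33 kb from the nearest siNC summit), 182431927 to 182432207 (8.56-fold), 191134873 to 191135104 (8.41-fold), 192530571 to 192530868 (8.40-fold) and 196411800 to 196412078 (8.22-fold). The siNC peak at 192534111 and the siCHD5 peak at 192530571, each absent from the other list, had summits 3.53 kb apart.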

How the data were processed

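TET1 pull-down and input were sequenced from HEK293T cells in 36 libraries, 18 of each kind. The submitters' processing notes name Bowtie2 2.3.4, MACS2 2.1.2, bedtools 2.25.0 and hg19. The sources used here give no settings and do not say whether duplicates were removed. Read totals per library were not analysed here. The deposited lists give, per summit, the authors' fold enrichment (a ratio of pull-down to local control), −log10 p-value and −log10 q-value. The authors' score is 10 times −log10 q, truncated to a whole number (9 values differ by 1).

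Peaks were placed by summit, and each deposited summit counted as a peak. Overlap meant at least 1 bp, and intervals are exact Clopper-Pearson 95% intervals (scipy 1.17.1). Pileup and background were solved from fold and −log10 p (pseudocount 1, tolerance 0.02). They are on the peak caller's scale, and the lowest background of a list (1.83 to 2.80 reads here) depends on depth and fragment length. Overlap and recovery were tested on simulated data. Coordinates are counted from 1.

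Named peaks are the 10 of highest fold per list, the 5 highest absent from the other of siNC and siCHD5, all peaks overlapped by an MBD list, and the fullest bins. All siMBD2 and siMBD3 peaks were described instead of 10. The members, bounds and lists were chosen with earlier results of these data known.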

Additional observations from a re-analysis of the deposited data

How the results depend on the processing

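Of 55 alternative values for 9 shares, 47 stayed within the 95% interval of the reported value. For the MBD lists this says little, since their intervals are wide (16.7 to 76.6% for siMBD3 peaks overlapping siMBD2). Starting the segment at 150 Mb gave 21.3% of siNC and 22.1% of siCHD5 chromosome 3 peaks, starting it at 170 Mb gave 12.5% and 13.4%, and a denominator from 100 Mb on gave 31.7% and 34.1%, all by construction. The siMBD2 share ranged from 84.6% to 92.3% over its alternatives and the siMBD3 share from 81.8% to 100%. Both depend on a window drawn around these peaks, so staying within their intervals is no evidence of stability. With −log10 q of 5 or more in both lists, siCHD5 overlapped 88.5% of siNC peaks. With 50% reciprocal overlap, siMBD2 peaks overlapping siNC fell from 4.35% to 0%, since the lone pair meets only at the edges of its intervals. At −log10 q of 5 or more, 7 siMBD2 and 3 siMBD3 peaks were left in the segment, so statements on these lists rest on few peaks of 11 to 26 reads. No paired analysis was possible because each siRNA has 1 pooled list, and no replicate could be left out for the same reason.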
